A study of Homo sapiens with 8 samples.

Results

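The genes described here act in the G2 phase and in mitosis. They are 42 genes chosen by symbol, out of 25558 genes with a symbol in the tables, and all 42 were among the 13116 genes with a mean of at least 1 FPKM (a level scaled to transcript length and to the fragments mapped in the library) over the 8 libraries. Their 110 RefSeq entries were summed per gene. The cells were of H1, a widely used line of human embryonic stem cells, grown without feeders on Matrigel with puromycin in every group. The lines carried a short hairpin RNA switched on by doxycycline, either against EXOSC3 (shEXOSC3), a subunit of the RNA exosome, or a non-silencing one (shNS). The 8 groups were shEXOSC3 with doxycycline, shEXOSC3 without it, shNS with doxycycline and shNS without it, each on day 5 and on day 7. Each group is 1 library of total RNA depleted of ribosomal RNA. The labels give the doxycycline dose as 2 mg/ml. Whether a line is 1 clone or a pool is not stated. With 1 library per group no difference below has a replicate check, so no test was made and genes are called by size alone, at 1.5-fold.

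A cell enters mitosis when cyclin B bound to CDK1 becomes active, after the CDC25 phosphatases remove the inhibitory phosphates from CDK1. PLK1 and the Aurora kinases then drive spindle assembly, and the spindle checkpoint holds the anaphase-promoting complex (APC/C) inactive until the kinetochores are attached. CDC20 then activates the APC/C, which sends securin (PTTG1) and cyclin B to destruction, so that sister chromatids part and the cell divides. The transcripts of many of these genes peak in G2 and mitosis through FOXM1 and the DREAM and MuvB complexes, so that their level in a culture follows the share of cells in those phases. Pluripotent stem cells cycle fast with a short G1 phase, and their cultures are rich in these transcripts.

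The promoters of this gene class are known for the cell cycle genes homology region (CHR), bound by MuvB complexes, and for CCAAT boxes, bound by NF-Y. The windows below are the 150 bases before the RefSeq start (assembly GRCh38.p14), shown because the genes differ in the motifs. They include HMMR and PTTG1 at the low end of the doxycycline comparison and PLK1 and MKI67 at its high end, with CCNB2, CCNB1 and CDC20 as well-known members of the class. Each is written 5′ to 3′ on the gene's strand, and capitals mark matches to TTTGAA or TTCGAA (CHR) and to CCAAT, on either strand (TTCAAA and ATTGG are the other-strand forms). Adjoining matches can share bases.
HMMR, chr5:163460482-163460631, plus strand: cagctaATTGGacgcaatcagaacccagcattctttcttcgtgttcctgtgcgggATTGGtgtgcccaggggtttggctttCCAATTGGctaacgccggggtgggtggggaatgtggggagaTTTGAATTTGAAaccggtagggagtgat
PTTG1, chr5:160421705-160421854, plus strand: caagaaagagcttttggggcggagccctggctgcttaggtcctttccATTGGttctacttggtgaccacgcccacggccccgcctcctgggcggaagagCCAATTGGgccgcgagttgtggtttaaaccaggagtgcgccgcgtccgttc
CCNB2, chr15:59104996-59105145, plus strand: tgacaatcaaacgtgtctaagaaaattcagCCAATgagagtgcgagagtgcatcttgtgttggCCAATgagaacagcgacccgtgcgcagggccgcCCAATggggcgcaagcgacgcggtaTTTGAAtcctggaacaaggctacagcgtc
CCNB1, chr5:69167000-69167149, plus strand: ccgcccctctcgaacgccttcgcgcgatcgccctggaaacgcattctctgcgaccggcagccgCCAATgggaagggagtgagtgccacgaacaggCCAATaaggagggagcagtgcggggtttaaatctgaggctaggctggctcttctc
CDC20, chr1:43358831-43358980, plus strand: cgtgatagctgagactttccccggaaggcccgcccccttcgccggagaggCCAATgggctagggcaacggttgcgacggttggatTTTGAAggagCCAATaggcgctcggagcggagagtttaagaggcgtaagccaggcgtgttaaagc
PLK1, chr16:23678739-23678888, plus strand: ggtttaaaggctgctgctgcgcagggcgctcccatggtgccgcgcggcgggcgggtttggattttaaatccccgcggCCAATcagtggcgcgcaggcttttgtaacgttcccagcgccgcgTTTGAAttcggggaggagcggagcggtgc
MKI67, chr10:128126424-128126573, minus strand: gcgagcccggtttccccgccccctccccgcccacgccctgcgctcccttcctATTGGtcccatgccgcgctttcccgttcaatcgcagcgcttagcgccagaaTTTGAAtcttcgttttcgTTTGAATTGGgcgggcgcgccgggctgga
HMMR has a pair of CHR matches side by side and 4 CCAAT matches, and MKI67 has 2 of each. CCNB2 has 1 CHR match after 3 CCAAT boxes, CDC20 has 1 and 2, and PLK1 has 1 of each. PTTG1, with 3 CCAAT matches, and CCNB1, with 2, have no letters of either CHR form in these bases.

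Windows of 250 bases before to 50 bases after the start were found for 34 of the 42 genes. Windows of AURKA, BIRC5, BUB3, TTK, TPX2, UBE2C, RACGAP1 and FOXM1 were not used here. A CHR match lay in at least 1 window of 25 of the 34 genes (73.5%), against 15.8% of the 10118 measured genes with a window. A CCAAT match lay in 28 of the 34 (82.4%), against 43.6% of measured genes, and both motifs lay in 21 (61.8%), against 8.69%. Over all 35116 windows of the RefSeq table, 16.4% hold a CHR match and 34.6% a CCAAT match. A match is a run of letters and not a shown site.

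The label of the lines was checked first. EXOSC3 stood at 11.3 FPKM with doxycycline and 25.2 without in shEXOSC3 cells on day 5, and at 12.3 with and 25.2 without on day 7. In shNS cells it was 27.8 with and 27.3 without on day 5, and 27.4 with and 30.3 without on day 7. Of 12 listed pluripotency markers 11 had a mean of at least 1 FPKM over the 8 libraries, and TDGF1 was not measured. Of the 11, 0 were at 0 in any library. The mesendoderm markers summed to between 0.42 and 1.22 FPKM. The neuroectoderm markers summed to between 66.9 and 107 FPKM, nearly all of it NES at 64.7 to 105. The trophectoderm and amnion markers summed to between 7.75 and 10.6 FPKM, most of it KRT7. The summed pluripotency markers were 2023 FPKM with and 2497 without doxycycline in shEXOSC3 cells on day 5, and 2131 with and 2415 without in shNS cells. On day 7 these sums were 2695 with and 3387 without in shEXOSC3 cells, and 2878 with and 3319 without in shNS cells. Of 10 fibroblast markers 6 were measured, and they summed to 139 FPKM with and 102 without doxycycline in shEXOSC3 cells on day 5, against 109 with and 101 without in shNS cells. On day 7 the sums were 229 with and 213 without in shEXOSC3 cells, against 172 with and 186 without in shNS cells. Most of each sum was THY1 alone. In shEXOSC3 cells THY1 had 107 FPKM with and 82.0 without doxycycline on day 5, and 197 with and 176 without on day 7. The markers COL3A1, DCN, LUM and FAP were below the minimum mean of 1 FPKM. The part of these markers in the results below was not tested. The 3 largest entries took 23.8 to 27.6% of the summed FPKM in libraries of day 5 but 6.21 to 7.16% in those of day 7, so values of the different days are set side by side only as a description.

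In shEXOSC3 cells most of the mitotic genes stood slightly lower with doxycycline on both days. All 42 together summed to 2530 FPKM with and 3004 FPKM without doxycycline on day 5, and to 2638 FPKM with and 3022 without on day 7. In shNS cells the sums were 2779 FPKM with and 2793 without on day 5, and 2797 with and 2938 without on day 7. The libraries of day 5 differed in their total of summed FPKM. This total was 680306 with and 749721 without doxycycline in shEXOSC3 cells, and 785419 with and 767679 without in shNS cells. As a share of the total, the 42 genes stood lower with doxycycline in each line on each day. By that share the treated shEXOSC3 library was above the shNS libraries on day 5, but the lowest of its day on day 7. The median log2 ratio, of FPKM + 1 with doxycycline over FPKM + 1 without it, was -0.22 on day 5 and -0.16 on day 7 in shEXOSC3 cells, where all measured genes had medians of 0 and -0.0038. In shNS cells the median of the 42 genes was -0.02 on day 5 and -0.05 on day 7, where all genes had 0.0084 and -0.0015. The differences were small: on the log2 scale the 42 ratios of shEXOSC3 cells ran from -0.60 to 0.45 on day 5 and from -0.54 to 0.50 on day 7, and those of shNS cells from -0.31 to 0.20 and from -0.30 to 0.43.

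**Figure D1:**
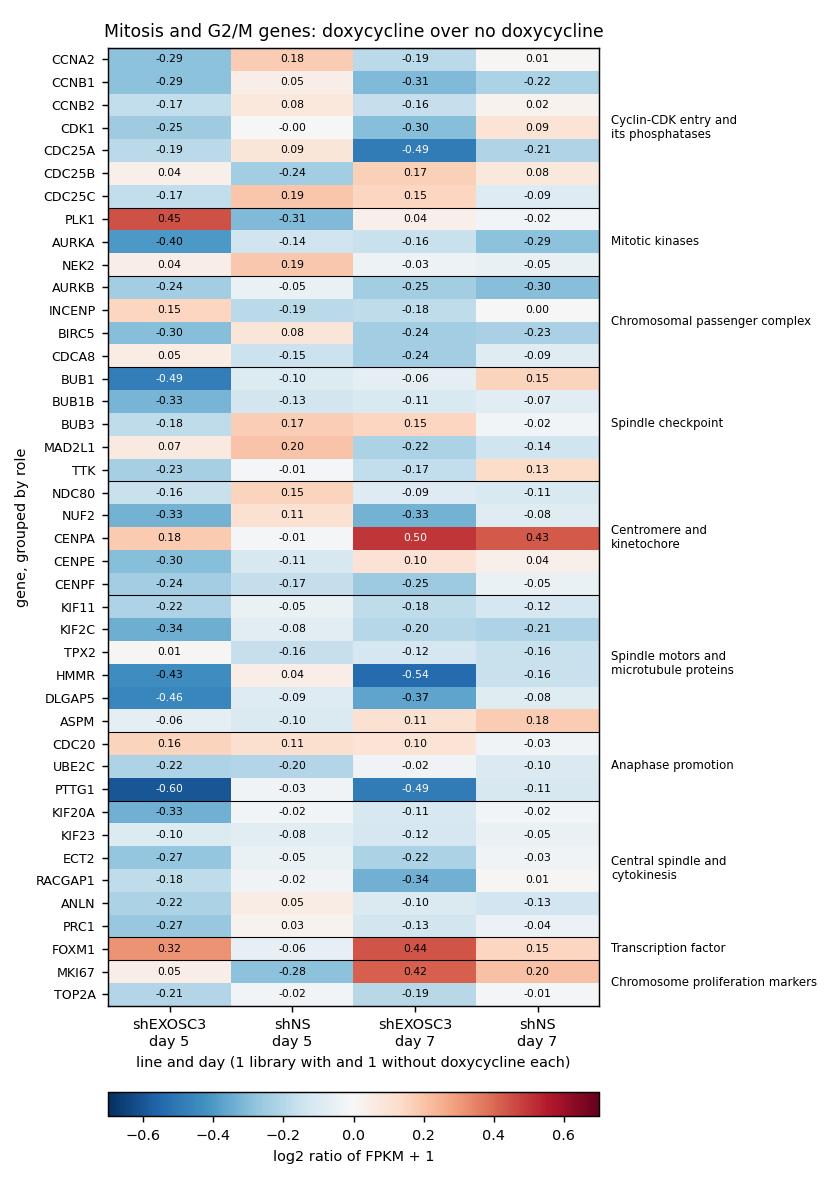
Log2 ratio of FPKM + 1, doxycycline over no doxycycline, for the 42 mitosis and G2/M genes (rows, grouped by role) in each line on each day (columns; 1 library with and 1 without doxycycline per column); blue is lower and red is higher with doxycycline. The shEXOSC3 columns are mostly blue, with 31 genes below 0 on day 5 (against 48.2% of all genes) and 32 on day 7 (against 50.6%). PTTG1 at -0.60 and PLK1 at 0.45 are the extremes of day 5 in shEXOSC3 cells.

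By count, 31 of the 42 genes were below 0 on day 5 in shEXOSC3 cells, against 48.2% of all measured genes. On day 7 there were 32, against 50.6%. Among the 8654 genes with a mean level inside the range of the 42, the shares were 52.2% and 54.2%. Of the 42, 27 were below 0 on both days (32.8% of all genes) and 6 were above 0 on both (31.7%). In shNS cells 27 genes were below 0 on day 5 (45.8% of all genes) and 29 on day 7 (50.2%), with 16 below 0 on both days (24.6% of all genes) and 2 above 0 on both (26.3%). At 1.5-fold, 1 gene was lower in shEXOSC3 cells on day 5, against 2.79% of all genes, and 0 were higher, against 4.31%. On day 7 there were 0 in either direction, against 3.23% of all genes lower and 5.02% higher. In shNS cells 0 genes reached 1.5-fold, against 1.52% of all genes in each direction on day 5, and 2.1% lower and 2.39% higher on day 7. At 2-fold 0 were lower in shEXOSC3 cells on day 5, against 0.717%. In shEXOSC3 cells 0 members were past 1.5-fold in the same direction on both days, against 1.12% of all genes higher and 0.801% lower. From bulk RNA, fewer cells in G2 and mitosis and less RNA of these genes per cell cannot be told apart.

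The adjusted difference, which is the log2 ratio in shEXOSC3 cells minus that in shNS cells of the same day, had a median of -0.21 on day 5 and -0.07 on day 7 over the 42 genes, beside -0.00076 and -0.010 over all genes. It was below 0 for 32 of the 42 genes on day 5, against 50.1% of all genes. On day 7 it was below 0 for 25, which is 59.5% of the 42 against 51.4% of all genes, close to the background. Among the 8654 genes with a mean level inside the range of the 42, 55.8% were below 0 on day 5 and 53.7% on day 7. Their medians were -0.043 and -0.022. Both days were below 0 for 22 genes (28.9% of all genes) and above 0 for 7 (26.0%). At 1.5-fold 1 gene was higher on day 5 (4.85% of all genes) and 0 were lower (2.73%), none (0) of them past 2-fold (1.51%), and on day 7 there were 0 higher (5.81%) and 0 lower (3.7%). Set across the separately normalized tables, untreated shEXOSC3 cells were above untreated shNS cells for 33 of the 42 genes on day 5, against 51.2% of all genes, with a median log2 difference of 0.070. On day 7 they were above for 31, against 54.7%, with a median of 0.045. This difference between the untreated lines enters every adjusted value.

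The cyclins, CDK1 and the CDC25 phosphatases form the entry switch of mitosis. In the values below, a pair of log2 ratios of a line is for day 5 and then day 7. Of these 7 genes 5 were below 0 on both days in shEXOSC3 cells, against 32.8% of all genes, and 0 in shNS cells, against 24.6%, with medians of -0.19 on each day in shEXOSC3 cells and 0.08 and 0.01 in shNS cells. CCNB1, which encodes cyclin B1 (hg19 chr5:68462837-68474070), stood at 164 FPKM with and 200 FPKM without doxycycline in shEXOSC3 cells on day 5, and at 187 with and 231 without on day 7. The shNS libraries held 204 with and 197 without on day 5, and 196 with and 229 without on day 7. The treated library was thus the lower one on both days in shEXOSC3 cells but only on day 7 in shNS cells, and the log2 ratios were -0.29 and -0.31 in shEXOSC3 cells and 0.05 and -0.22 in shNS cells. CCNA2, or cyclin A2, which acts in S phase and G2 (chr4:122722472-122745088), had 99.9 FPKM with and 122 without doxycycline in shEXOSC3 cells on day 5, and 105 with and 120 without on day 7. The shNS cells had 118 with and 104 without on day 5, and 117 with and 116 without on day 7. Here the signs of the lines were opposite on both days, with log2 ratios of -0.29 and -0.19 in shEXOSC3 cells and 0.18 and 0.01 in shNS cells, the last being near 0. The CCNA2 locus in the tables also holds EXOSC9, and strand use in counting is not stated.

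CDK1, the kinase partner of both cyclins (chr10:62538089-62554610), had 86.1 FPKM with and 102 FPKM without doxycycline in shEXOSC3 cells on day 5, and 84.2 with and 104 without on day 7. In shNS cells it had equal levels of 110 on day 5, and 96.0 with and 89.9 without on day 7. Its adjusted log2 difference was -0.25 on day 5 and -0.39 on day 7, the lowest of the 42 on day 7. CCNB2, the other mitotic B-type cyclin, followed CCNA2 in sign with log2 ratios of -0.17 and -0.16 in shEXOSC3 cells, and 0.08 and 0.02 in shNS cells. Among the phosphatases CDC25A, which activates CDK2 and CDK1, stood at 39.7 FPKM with and 45.3 without doxycycline in shEXOSC3 cells on day 5, and at 26.5 with and 37.6 without on day 7. Its log2 ratios were -0.19 and -0.49 in shEXOSC3 cells, beside 0.09 and -0.21 in shNS cells. CDC25B, the least abundant of the 42 at a mean of 4.84 FPKM, had 0.04 and 0.17 in shEXOSC3 cells, and -0.24 and 0.08 in shNS cells. CDC25C, whose locus also holds FAM53C, had -0.17 and 0.15 in shEXOSC3 cells, and 0.19 and -0.09 in shNS cells.

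The mitotic kinases did not share a direction. PLK1, which acts from mitotic entry to cytokinesis (chr16:23690143-23724821, a locus that also holds ERN2), stood at 33.0 FPKM with and 24.0 FPKM without doxycycline in shEXOSC3 cells on day 5, against 20.1 with and 25.1 without in shNS cells. On day 7 it stood at 19.3 with and 18.8 without in shEXOSC3 cells, against 17.7 with and 17.9 without in shNS cells. The treated shEXOSC3 library of day 5 was the highest of the 8, and all 4 libraries of day 7 lay within a narrow range. Its log2 ratio on day 5 was 0.45 in shEXOSC3 cells and -0.31 in shNS cells, neither of which reaches 1.5-fold alone, and their difference of 0.76 was the only member value past 1.5-fold in the adjusted comparison. On day 7 that difference was 0.05. AURKA, the Aurora kinase of the spindle poles, had 57.3 FPKM with and 76.0 without doxycycline in shEXOSC3 cells on day 5 and 47.4 with and 52.9 without on day 7. Its log2 ratios were -0.40 and -0.16 in shEXOSC3 cells, and also below 0 in shNS cells, at -0.14 and -0.29. NEK2, a centrosomal kinase, was between -0.05 and 0.19 in all 4 ratios.

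The chromosomal passenger complex, which corrects wrong attachments and guides cytokinesis, had medians of -0.10 and -0.24 in shEXOSC3 cells and -0.10 and -0.16 in shNS cells. Its kinase AURKB had log2 ratios of -0.24 and -0.25 in shEXOSC3 cells, and -0.05 and -0.30 in shNS cells. BIRC5, or survivin, had -0.30 and -0.24 in shEXOSC3 cells, beside 0.08 and -0.23 in shNS cells. INCENP, the scaffold, and CDCA8, or borealin, were above 0 on day 5 in shEXOSC3 cells, at 0.15 and 0.05, and below 0 on day 7, at -0.18 and -0.24. In shNS cells INCENP had -0.19 and 0.00, and CDCA8 had -0.15 and -0.09. By its entry with the highest mean FPKM alone, 71.3% of the sum, CDCA8 would be at -0.25 in shEXOSC3 cells on day 5. Its adjusted difference on that day would be -0.31, where the sum gives 0.20. The median adjusted difference of the 4 genes was 0.00 on day 5 and -0.09 on day 7.

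The spindle checkpoint genes had medians of -0.23 and -0.11 in shEXOSC3 cells and -0.01 and -0.02 in shNS cells. BUB1, the kinetochore kinase that recruits other checkpoint proteins, had 55.9 FPKM with and 78.6 without doxycycline in shEXOSC3 cells on day 5, and 37.7 with and 39.4 without on day 7. The ratio was -0.49 on day 5 and -0.06 on day 7 in shEXOSC3 cells, and -0.10 and 0.15 in shNS cells. BUB1B, or BUBR1, whose locus also holds PAK6, was below 0 in all 4 ratios, at -0.33 and -0.11 in shEXOSC3 cells and -0.13 and -0.07 in shNS cells. TTK, or MPS1, the kinase at the head of the checkpoint, had -0.23 and -0.17 in shEXOSC3 cells, beside -0.01 and 0.13 in shNS cells. MAD2L1, which binds and holds back CDC20, was at 0.07 and -0.22 in shEXOSC3 cells, beside 0.20 and -0.14 in shNS cells. BUB3, the partner of both BUB kinases, was at -0.18 and 0.15 in shEXOSC3 cells, beside 0.17 and -0.02 in shNS cells. Only BUB1B, BUB1 and TTK were below 0 on both days in shEXOSC3 cells, 3 of the 5 genes against 32.8% of all genes.

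Among the centromere and kinetochore genes, NUF2 and NDC80 are subunits of the complex that binds microtubules. NUF2 (chr1:163291723-163325553) stood at 21.5 FPKM with and 27.3 FPKM without doxycycline in shEXOSC3 cells on day 5, and at 27.0 with and 34.2 without on day 7. With the shNS hairpin it stood at 24.7 with and 22.9 without on day 5, and at 31.0 with and 32.9 without on day 7. Within each day the treated shEXOSC3 library was the lowest of the 4, with log2 ratios of -0.33 on both days, beside 0.11 and -0.08 in shNS cells. By its entry with the highest mean FPKM alone, the ratio of NUF2 in shEXOSC3 cells on day 5 would be 0.21. The adjusted difference would be 0.62 on day 5 and 0.15 on day 7, where the sum gives -0.44 and -0.25. NDC80 had smaller values of -0.16 and -0.09 in shEXOSC3 cells, beside 0.15 and -0.11 in shNS cells. CENPE, a kinetochore motor, had -0.30 and 0.10 in shEXOSC3 cells, and -0.11 and 0.04 in shNS cells. CENPF, a kinetochore and nuclear matrix protein, had -0.24 and -0.25 in shEXOSC3 cells, beside -0.17 and -0.05 in shNS cells. CENPA, the histone H3 variant of centromeres, was on the other side of 0, at 19.3 FPKM with and 16.9 without doxycycline in shEXOSC3 cells on day 5, and 15.4 with and 10.6 without on day 7. Its log2 ratio of 0.50 on day 7 was the highest of the 42 in shEXOSC3 cells, and shNS cells had a like value of 0.43 on that day.

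The spindle motors and microtubule proteins held some of the lowest values. HMMR, a spindle protein and hyaluronan receptor (chr5:162887517-162921064), stood at 49.3 FPKM with and 66.9 FPKM without doxycycline in shEXOSC3 cells on day 5, and at 50.6 with and 74.1 without on day 7. Levels in shNS cells were 57.9 with and 56.2 without on day 5, and 67.4 with and 75.4 without on day 7. The treated shEXOSC3 library was the lowest of its day each time, with log2 ratios of -0.43 and -0.54 in shEXOSC3 cells, beside 0.04 and -0.16 in shNS cells. Its adjusted difference was -0.48 on day 5 and -0.38 on day 7. These values rest on the sum of 4 entries: by the entry with the highest mean FPKM alone, 40.9% of the sum, the ratio in shEXOSC3 cells on day 5 would be 0.05, and the adjusted difference would be -0.09 on day 5 and 0.03 on day 7. The antisense gene HMMR-AS1 overlaps HMMR, and the counts of the pair cannot be told apart without strand. DLGAP5, a kinetochore fibre protein, had 105 FPKM with and 145 without doxycycline in shEXOSC3 cells on day 5, and 118 with and 153 without on day 7. Its log2 ratios were -0.46 and -0.37 in shEXOSC3 cells, beside -0.09 and -0.08 in shNS cells. KIF11, the motor that separates the spindle poles, had -0.22 and -0.18 in shEXOSC3 cells, beside -0.05 and -0.12 in shNS cells, and KIF2C, which depolymerises microtubules, had -0.34 and -0.20 in shEXOSC3 cells, beside -0.08 and -0.21 in shNS cells. TPX2, the activator of Aurora A, had 0.01 and -0.12, and ASPM, a spindle pole protein, had -0.06 and 0.11, with shNS values of -0.16 and -0.16 for TPX2 and -0.10 and 0.18 for ASPM.

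PTTG1, CDC20 and UBE2C act at the start of anaphase. PTTG1 is securin, the inhibitor of separase (chr5:159848814-159855751), and it had the highest mean level of the 42, at 239 FPKM. It stood at 195 FPKM with and 296 FPKM without doxycycline in shEXOSC3 cells on day 5, and at 192 with and 269 without on day 7. In shNS cells it stood at 229 with and 233 without on day 5, and at 238 with and 257 without on day 7. The treated shEXOSC3 library was again the lowest of each day, and the untreated shEXOSC3 library was the highest. The log2 ratio of -0.60 on day 5 in shEXOSC3 cells was the only one of the 42 past 1.5-fold within a line, and it was -0.49 on day 7, beside -0.03 and -0.11 in shNS cells. PTTG1 has near-identical copies elsewhere in the genome, PTTG2 and PTTG3P, among which reads can be divided, so its value is uncertain.

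CDC20, which activates the APC/C (chr1:43824626-43828873), stood at 93.4 FPKM with and 83.7 FPKM without doxycycline in shEXOSC3 cells on day 5, and at 28.7 with and 26.8 without on day 7. The shNS libraries held 83.6 with and 77.2 without on day 5, and 24.0 with and 24.4 without on day 7. The doxycycline ratios were small, at 0.16 and 0.10 in shEXOSC3 cells and 0.11 and -0.03 in shNS cells, while the libraries of day 7 were all far below those of day 5. UBE2C, the ubiquitin-conjugating enzyme of the APC/C, had -0.22 and -0.02 in shEXOSC3 cells, and -0.20 and -0.10 in shNS cells.

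**Figure D2:**
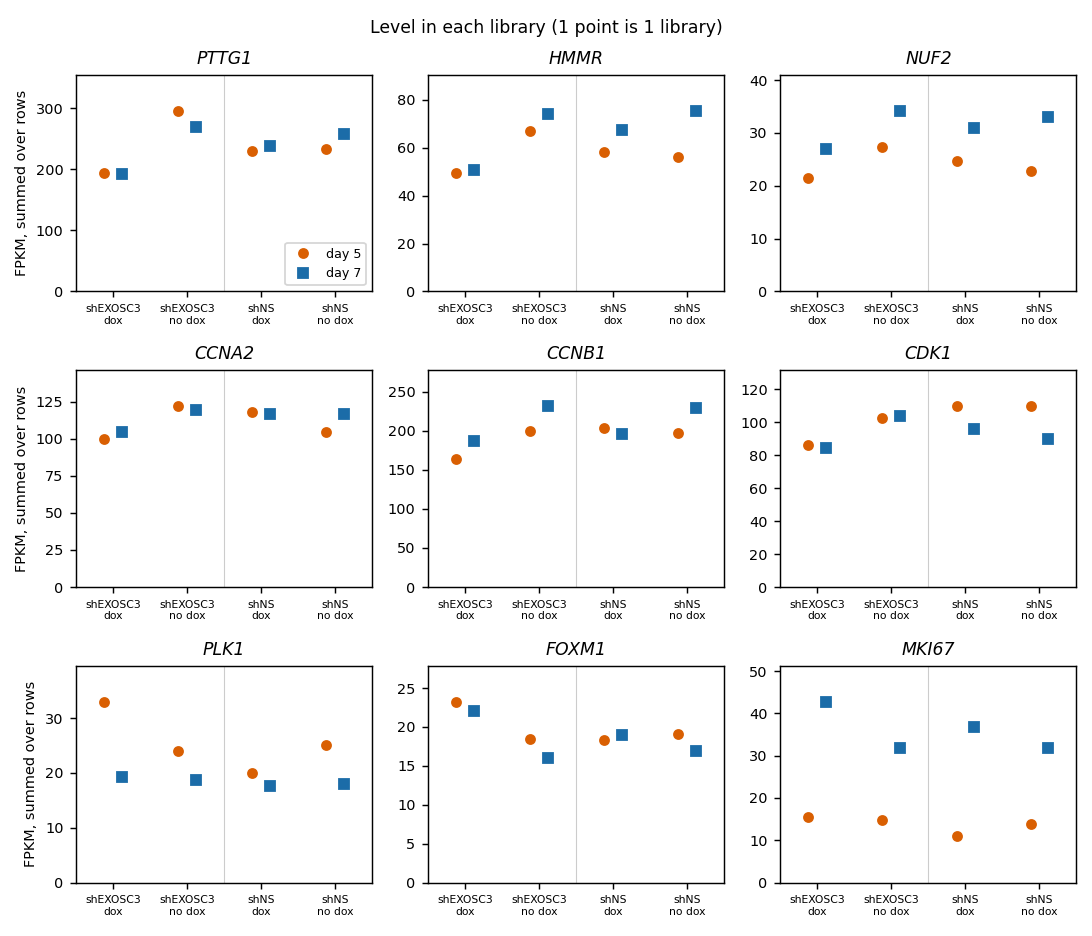
FPKM summed over the RefSeq entries of 9 genes (panels, linear axes from 0) in each of the 8 libraries; orange circles are day 5, blue squares are day 7 and 1 point is 1 library. The treated shEXOSC3 library is the lowest of its day for PTTG1 (195 and 192 FPKM), HMMR (49.3 and 50.6) and NUF2 (21.5 and 27.0), and the highest of its day for PLK1, FOXM1 and MKI67.

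The 6 genes of the central spindle and cytokinesis had a common sign in shEXOSC3 cells by their summed entries. There 6 of 6 were below 0 on both days, against 32.8% of all genes, and 3 of 6 in shNS cells, against 24.6%. Their medians were -0.25 and -0.12 in shEXOSC3 cells and -0.02 and -0.03 in shNS cells. The common sign rests on the sums. By the entry with the highest mean FPKM alone, KIF23 would be at 0.66 and ECT2 at 0.10 in shEXOSC3 cells on day 7, where the sums give -0.12 and -0.22. ECT2, the exchange factor that activates RhoA at the cleavage furrow, had 55.7 FPKM with and 67.5 without doxycycline in shEXOSC3 cells on day 5, and 77.2 with and 90.3 without on day 7. Its log2 ratios were -0.27 and -0.22 in shEXOSC3 cells, beside -0.05 and -0.03 in shNS cells. RACGAP1, the centralspindlin subunit that recruits ECT2, had -0.18 and -0.34 in shEXOSC3 cells, beside -0.02 and 0.01 in shNS cells, and the motor KIF23 of the same complex had -0.10 and -0.12 in shEXOSC3 cells, beside -0.08 and -0.05 in shNS cells. KIF20A, a central spindle motor, had -0.33 and -0.11 in shEXOSC3 cells, and -0.02 on both days in shNS cells. PRC1, which bundles the central microtubules, had -0.27 and -0.13 in shEXOSC3 cells, and 0.03 and -0.04 in shNS cells, and by its entry with the highest mean FPKM alone its adjusted difference on day 5 would be 0.60, where the sum gives -0.29. ANLN, the actin-binding anillin, had -0.22 and -0.10 in shEXOSC3 cells, and 0.05 and -0.13 in shNS cells. The locus of KIF20A also holds CDC23, that of PRC1 holds PRC1-AS1 and that of ANLN holds MATCAP2.

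FOXM1 is the transcription factor of the set, and it was above 0 on both days in shEXOSC3 cells. It stood (chr12:2945982-2998691) at 23.2 FPKM with and 18.5 FPKM without doxycycline in shEXOSC3 cells on day 5, and at 22.0 with and 16.0 without on day 7. With the shNS hairpin it stood at 18.3 with and 19.1 without on day 5, and at 18.9 with and 17.0 without on day 7. The treated shEXOSC3 library was the highest of each day, with log2 ratios of 0.32 and 0.44 in shEXOSC3 cells, beside -0.06 and 0.15 in shNS cells. Its locus also holds RHNO1. The sum of FOXM1 was steadier than its parts: the entry NM_202003, 48.2% of the sum, was listed at 9.60 FPKM with and 8.27 without doxycycline in shEXOSC3 cells on day 5, and at 20.1 with and 0.187 without on day 7. In shNS cells that entry was at 7.39 with and 2.33 without on day 5, and at 9.38 with and 16.5 without on day 7. By that entry alone the adjusted difference of FOXM1 would be -1.14 on day 5 and 4.91 on day 7, where the sum gives 0.38 and 0.29.

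MKI67 and TOP2A are used as markers of proliferating cells. MKI67, which coats mitotic chromosomes (chr10:129894925-129924468), stood at 15.4 FPKM with and 14.9 FPKM without doxycycline in shEXOSC3 cells on day 5, and at 42.8 with and 31.8 without on day 7. Levels in shNS cells were 11.1 with and 13.8 without on day 5, and 36.8 with and 31.8 without on day 7. The log2 ratios were 0.05 and 0.42 in shEXOSC3 cells, and -0.28 and 0.20 in shNS cells, so on day 7 both lines had the higher level with doxycycline. By the entry with the highest mean FPKM alone its adjusted difference on day 7 would be -0.16, where the sum gives 0.21. TOP2A, the topoisomerase that untangles chromosomes (chr17:38544773-38574202), stood at 150 FPKM with and 173 FPKM without doxycycline in shEXOSC3 cells on day 5, and at 161 with and 184 without on day 7. In shNS cells it stood at 166 with and 168 without on day 5, and at 164 with and 165 without on day 7. Its log2 ratios were -0.21 and -0.19 in shEXOSC3 cells, and -0.02 and -0.01 in shNS cells. The pair of proliferation markers therefore stood on opposite sides of 0 in shEXOSC3 cells on both days.

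The days share no library, so their ratios can be set side by side. Across the 42 genes the log2 ratios of day 5 and day 7 in shEXOSC3 cells had a Pearson r of 0.61 and a Spearman rho of 0.52. In shNS cells the values were -0.20 and -0.20. Over all 13116 genes rho was 0.45 in shEXOSC3 cells and 0.12 in shNS cells. These are descriptions across genes, which share their libraries and are not independent replicates.

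**Figure D3:**
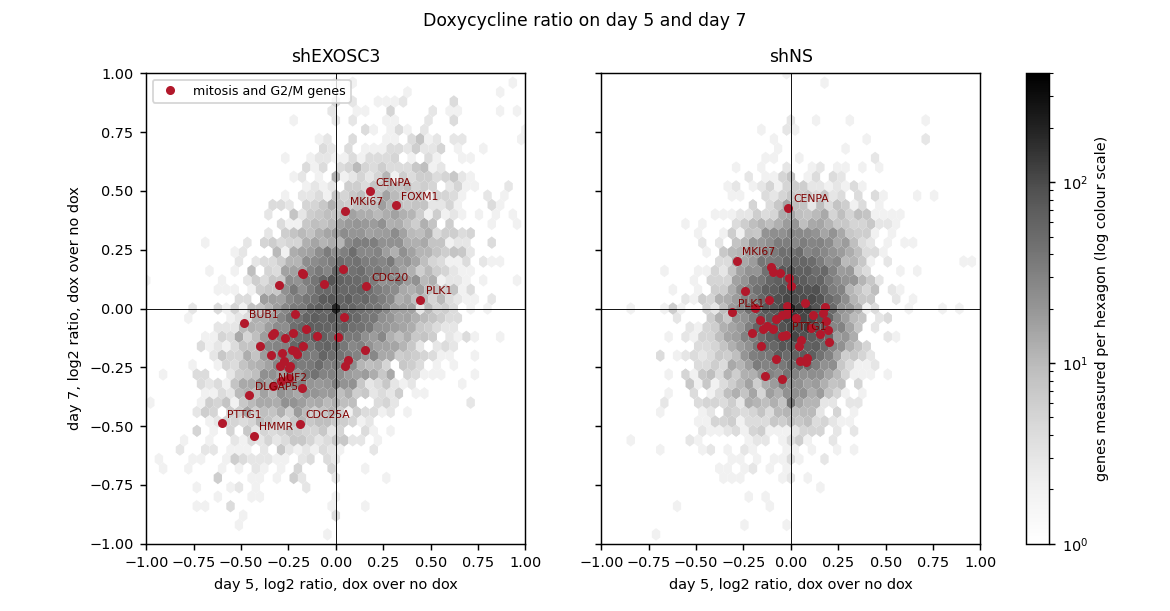
Log2 ratio of FPKM + 1, doxycycline over no doxycycline, on day 5 (horizontal axis) and day 7 (vertical axis) in shEXOSC3 (left) and shNS cells (right); red points are the 42 mitosis and G2/M genes and grey hexagons count all measured genes on a log colour scale. In shEXOSC3 cells 27 of the 42 points lie in the lower left quadrant, against 32.8% of all genes, with PTTG1, HMMR and DLGAP5 farthest out. In shNS cells 16 of the 42 do, against 24.6% of all genes.

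Related gene lists outside the 42 had medians nearer to 0 in shEXOSC3 cells on day 5. The 27 replication and S-phase genes had medians of -0.03 on day 5 and -0.29 on day 7 in shEXOSC3 cells, and 0.08 and -0.02 in shNS cells. Of the 27, 14 were below 0 on both days in shEXOSC3 cells, against 32.8% of all genes. The mitotic genes had the lower median of the pair on day 5 and the S-phase genes on day 7. Other mitotic kinesins and cytokinesis genes, 18 measured of 19 listed, had medians of -0.10 and -0.13 in shEXOSC3 cells, beside -0.08 and -0.05 in shNS cells. Of the 18, 13 were below 0 on both days in shEXOSC3 cells, against 32.8% of all genes, and 8 in shNS cells, against 24.6%. The 32 other kinetochore genes had -0.08 and -0.12 in shEXOSC3 cells, beside 0.06 and -0.02 in shNS cells. Of the 32, 16 were below 0 on both days in shEXOSC3 cells, against 32.8% of all genes, and 6 in shNS cells, against 24.6%. The 16 APC/C subunits had -0.14 and 0.02 in shEXOSC3 cells, beside 0.02 and -0.03 in shNS cells. Condensin, cohesin and separase (18 genes) and centrosome genes (14 of 15) had medians between -0.03 and 0.00 in shEXOSC3 cells.

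The 13 DREAM and MuvB genes had medians of -0.04 and 0.03 in shEXOSC3 cells, and 0.03 and 0.12 in shNS cells. The G2 checkpoint genes and CDK inhibitors (13 of 15 measured) had 0.05 and -0.09 in shEXOSC3 cells, beside 0.04 and -0.14 in shNS cells. At 1.5-fold in shEXOSC3 cells, the 151 measured genes of all these lists held 4 higher genes on day 5 (2.65%, against 4.31% of all genes), which were CENPT, PKMYT1, GADD45A and UHRF1, and 1 lower gene (0.662%, against 2.79%), the CDK-binding protein gene CKS2. On day 7 they held 2 higher genes (1.32%, against 5.02%), CDKN1A and TYMS, and 0 lower ones (against 3.23%). All these shares were below the background. CDKN1A, which encodes the cell cycle inhibitor p21, stood at 37.4 FPKM with and 29.3 without doxycycline in shEXOSC3 cells on day 5, and at 33.2 with and 20.4 without on day 7. The shNS libraries held 19.6 with and 27.0 without on day 5, and 9.93 with and 14.8 without on day 7. It was thus higher with doxycycline in shEXOSC3 cells and lower in shNS cells, with adjusted differences of 0.78 and 1.21. CDKN1A was the only gene of the 151 past 1.5-fold on both days in that comparison. That is 0.662% of them, against 1.04% of all genes at least 1.5-fold higher, so this share too was below the background.

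**Figure D4:**
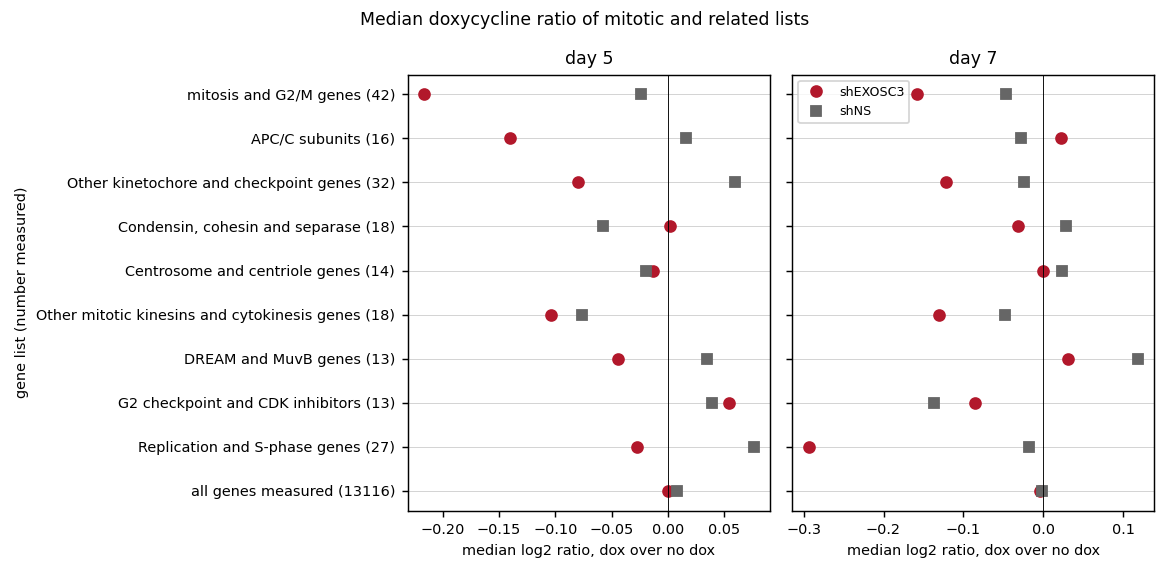
Median log2 ratio of FPKM + 1, doxycycline over no doxycycline, of the 42 mitosis and G2/M genes, of 8 related gene lists and of all measured genes (rows, with the number measured) on day 5 (left) and day 7 (right); red circles are shEXOSC3 and grey squares are shNS cells. The 42 genes have the lowest shEXOSC3 median on day 5, at -0.22, and the S-phase genes on day 7, at -0.29.

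Levels on day 7 against day 5 differed more than levels with against without doxycycline, for these genes and for all genes. In shEXOSC3 cells with doxycycline the middle of the 42 log2 values of day 7 over day 5 ran from -0.34 to 0.46 (25th to 75th percentile), while that of the doxycycline ratios of day 5 ran from -0.29 to -0.01. Log2 ratios of FPKM + 1 on day 7 over day 5, across separately normalized tables, had medians of 0.033 and -0.0056 in shEXOSC3 cells with and without doxycycline, and 0.015 and 0.083 in shNS cells with and without it. All genes had -0.070, -0.083, -0.095 and -0.087 in that order. In all 4 conditions 4 of the 42 were at least 1.5-fold higher on day 7, against 10.9% of all genes, and 4 were at least 1.5-fold lower, against 18.9%. The higher ones were MKI67, KIF23, CENPF and TPX2, and the lower ones CDC20, BUB3, INCENP and RACGAP1. MKI67 had log2 values from 1.04 to 1.64, and CDC20 from -1.76 to -1.61. These values moved with the GC content of the transcripts, with a Spearman rho from -0.61 to -0.49 across the 42 genes and from -0.56 to -0.49 across all genes, and with transcript length, with rho from 0.38 to 0.43 and from 0.14 to 0.21. The part of GC content, length and the preparation of each day in these values was not tested.

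The GC content also ran with the doxycycline ratios to a lesser degree. The 42 genes had a median GC content of 43.8%, against 48.6% over all genes with a transcript sequence. Across the 42, Spearman's rho between ratio and GC content was 0.37 on day 5 and 0.22 on day 7 in shEXOSC3 cells, and -0.26 and -0.10 in shNS cells. For the adjusted difference it was 0.35 and 0.42. Over all genes it was 0.26 and 0.07 in shEXOSC3 cells, 0.01 and -0.14 in shNS cells, and 0.23 and 0.18 for the adjusted difference. An alternative was added after the data were seen. It took the median of all genes in the same bin of GC content (of 10 bins) off each ratio. The medians of the 42 were then -0.18 and -0.14 in shEXOSC3 cells. There 32 and 31 genes were below 0, against 49.8% and 50.0% of all genes. In shNS cells the medians were -0.03 and -0.06, with 27 and 29 genes below 0, against 50.0% of all genes on each day. The adjusted medians then were -0.16 on day 5 and -0.03 on day 7. Below 0 were 32 and 25 genes, against 51.5% and 51.3% of all genes.

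The authors' deposited tables hold a p-value per RefSeq entry for the treated and untreated library of each line and day. It is a test of 1 library against 1, for 1 entry and not for the sum of a gene. The HMMR entry listed below had 20.4 FPKM with and 38.2 without doxycycline in shEXOSC3 cells on day 5. It is not the HMMR entry with the highest mean FPKM, which had 16.3 with and 15.7 without. In the authors' deposited tables between 82 and 85 of the 110 member entries were tested, and at an unadjusted p under 0.05 they list 2 entries in shEXOSC3 cells on day 5, 0 on day 7, and 1 and 0 in shNS cells. As shares of tested entries in the authors' deposited tables these are 2.41% and 0% in shEXOSC3 cells and 1.19% and 0% in shNS cells, against 4.60%, 5.11%, 4.18% and 6.36% over the entries of all genes, so the members' shares were below the background. The smallest p in the authors' deposited tables in shEXOSC3 cells was 0.0367 for HMMR on day 5 (q = 0.765) and 0.0977 for PTTG1 on day 7 (q = 0.715). No entry of any gene had q under 0.05 (0 in each table).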

How the data were processed

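Total RNA of 8 H1 libraries was depleted of ribosomal RNA, given spike-in RNA and turned into libraries with the ScriptSeq v2 kit, per the labels' protocols. CASAVA 1.8, TopHat and Cufflinks were used on hg19, per the submitters' processing notes; no source used here gives their order, the normalization option or strand use. Each of 4 deposited tables holds 1 treated and 1 untreated library of a line and day as FPKM per RefSeq transcript, per the file headers, with a p-value and a q-value of the authors for that pair. The number of reads per library is not given. Depth with over without doxycycline was only roughly estimated, from recurring ratios among the low values. The estimates were 1.01 and 0.920 in shEXOSC3 cells on days 5 and 7, and 1.59 and 1.34 in shNS cells. Between 438 and 702 of the 3918 to 4393 transcripts used per pair had such a ratio.

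Of 49235 transcripts per table, 48147 (97.8%) had a symbol in RefSeq (GRCh38.p14, used for names, promoters and no other coordinates). FPKM were summed per gene; 55 genes with a failed estimate were left out, none of them a member. Genes with a mean under 1 FPKM were left out. Ratios were log2((FPKM + 1)/(FPKM + 1)), on which differences of low genes come out too small. Ratios were formed within a table. The list medians are given beside all genes, with no test. GC content came from GENCODE release 29 transcripts. Gene coordinates come from the deposited tables (hg19, written 1-based); a listed locus can span a neighbour. Full values are given for members past 1.5-fold in the adjusted difference on either day, for the 3 highest and 3 lowest by its mean over the days, and for CCNB1, CDK1, CCNA2, PLK1, CDC20, FOXM1, MKI67 and TOP2A. Other members given with FPKM were chosen after their values were seen. The members and all lists were chosen with earlier results of these data known. The code was tested on simulated data. Python 3.11.15, pandas 2.3.3, numpy 2.4.6 and matplotlib 3.10.9 were used. Alternatives were pseudocounts of 0.1 and 5, a minimum of 5 FPKM and none, the entry with the highest mean FPKM in place of the sum, a 2-fold call, ratios across tables, a GC adjustment, and members with 1 entry.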

Additional observations from a re-analysis of the deposited data

Results flagged for a closer look

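Of the 42 genes, 3 (7.14%) had ratios of opposite sign in the lines on both days, against 9.47% of all measured genes; the difference between the lines was not tested. CCNA2 was below 0 in shEXOSC3 cells and above 0 in shNS cells, with a mean adjusted log2 difference of -0.33 over the days. CCNB2 had the same signs, with a mean of -0.22. PLK1 was above 0 in shEXOSC3 cells and below 0 in shNS cells, with a mean of 0.40, of which day 5 gave 0.76 and day 7 gave 0.05.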

How the results depend on the processing

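No paired analysis was possible because the groups share only 1 replicate number, with 1 library each, and for the same reason no replicate could be left out. Days are time points and not replicates, and a fit with the day as a block was not run. A median was counted as the same within 0.1 on the log2 scale with its sign kept, and a count within 1.5-fold. By these limits 193 values of the main results were the same under all alternatives and 19 moved. The limit of 0.1 is larger than the shNS medians and the adjusted median of day 7. Changes of sign were counted only for PTTG1 and PLK1 on day 5, the gene values past 1.5-fold, and there were 0. Smaller ratios did change sign. Of the 29 members with several entries, the entry with the highest mean FPKM alone had the other sign than the sum for 5 in shEXOSC3 cells on day 5 and 2 on day 7, for 8 and 10 in shNS cells, and for 5 and 9 in the adjusted difference. These include HMMR (0.05) and NUF2 (0.21) in shEXOSC3 cells on day 5, NUF2 (0.62) and FOXM1 (-1.14) in the adjusted difference of day 5, and HMMR (0.03), NUF2 (0.15) and MKI67 (-0.16) in that of day 7. Taking only the entry with the highest mean FPKM gave 2 members at least 1.5-fold higher in shEXOSC3 cells on day 7; in shNS cells it gave 1 higher and 1 lower on day 5 and 2 lower on day 7; in the adjusted difference it gave 3 higher and 1 lower on day 5, and 3 higher and 2 lower on day 7. In this setting the division of reads among transcripts enters each value. The shares over the 12694 genes measured in this setting were not computed, so these counts have no background beside them. At 2-fold, 0 members were lower in shEXOSC3 cells on day 5 and 0 were higher in the adjusted difference. After the GC adjustment PTTG1 was at -0.58 on day 5, so that 0 members were 1.5-fold lower. Among the 13 members with 1 entry, an alternative added after the data were seen, 0 were 1.5-fold lower in shEXOSC3 cells on day 5. Those below 0 on days 5 and 7 numbered 9 and 11 in shEXOSC3 cells, and 7 and 11 in shNS cells. In the adjusted difference they numbered 10 and 9. The smaller set lowers these counts. The shares over the 6513 measured genes with 1 entry were not computed, so they too have no background beside them. Set across tables, treated shEXOSC3 over treated shNS cells gave a median of -0.10 on day 5, where the adjusted difference gave -0.21; the untreated lines differ by the 0.070 given above. With 1 library per group and unknown read depth, differences of the size seen here have no error estimate.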
